A study of Saccharomyces cerevisiae with 4 samples.

Results

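The transcripts of 8 genes of the budding yeast ubiquitin and proteasome system are described here at the positions that the authors listed as 5-formylcytidine (f5C) sites. The genes are the proteasome-associated ECM29 and BLM10, the regulatory particle subunits RPN1, RPN2 and RPN12, the unfolding ATPase CDC48, the ubiquitin-activating enzyme UBA1 and the polyubiquitin gene UBI4. They were chosen by name, with their listing known and with the level of ECM29 and BLM10 in view, and hold 15 of the 1892 listed sites, in 8 of 1256 gene entries. Poly(A)+ RNA came from Saccharomyces cerevisiae started from a single colony and grown overnight at 28 °C in a glucose-rich medium. In 2 treated libraries the fragmented RNA had been incubated with pyridine borane for 24 h at 37 °C, and 2 input libraries were made without that step. No strain or genotype was named in the sources used, and nothing says whether replicates 1 and 2 were separate cultures, so the spread between them may be technical.

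The proteasome degrades proteins that carry chains of ubiquitin. An E1 enzyme activates ubiquitin and passes it to E2 and E3 enzymes, which attach it to the substrate. The regulatory particle binds the tagged substrate, unfolds it and feeds it into the barrel-shaped core particle, while CDC48 pulls ubiquitylated proteins out of complexes and membranes. f5C is an oxidised form of 5-methylcytidine. Reduction by pyridine borane turns it into dihydrouridine, which is copied as if it were U, so a modified cytidine shows up as a mutated base in treated RNA and not in input. The level of a site is its share of mutated among covering reads, averaged over both treated libraries.

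Among these transcripts, ECM29 and BLM10 held the 2 highest sites, at levels of 32.3% ± 2.24 and 32.0% ± 0.212 (SD, n = 2), while the other 13 sites lay between 7.56% and 11.1%. The median of the 15 sites was 9.13%, and the median of all 1892 listed sites was 9.00%. Levels of at least 20% were reached by 2 of the 15 sites and by 1.06% of all listed sites, and levels of at least 10% by 5 of the 15 and by 27.5%. The members were picked with the first of these values known and every site was listed for its excess of mutated reads in treated RNA, so the levels are a description and carry no test. Without ECM29, the single site under 100 reads in a library, the median was 8.86%.

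ECM29 (YHL030W) encodes a large helical-repeat protein that tethers the regulatory particle to the core particle. Its single listed site lay on chromosome VIII at position 45045 of the plus strand, in the coordinates of the authors' table, whose genome build was not stated in the sources used. Mutated reads were 27 of 88 (30.7%) in treated replicate 1 and 22 of 65 (33.8%) in treated replicate 2. Neither input library had a mutated read, at 63 and 68 covering reads, which together allow an input share of up to 2.29%. With both treated libraries pooled, the Wilson 95% interval was 25.2% to 39.8%. This and the other intervals and upper limits cover counting error only, since no molecular identifiers are stated.

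BLM10 (YFL007W) encodes another large helical-repeat protein, which caps an end of the core particle. It held 2 listed sites on the plus strand of chromosome VI, 5222 nt apart. Site 1, counted from the 5′ end as are all site numbers here, lay at position 123665, with 81 of 252 (32.1%) and 57 of 179 (31.8%) reads mutated in treated replicates 1 and 2. In input, 0 of 228 and 1 of 204 reads were mutated there. At site 2, position 128887, 18 of 181 (9.94%) and 14 of 128 (10.9%) treated reads were mutated, against 0 of 153 and 0 of 127 in input. The 2 sites of this transcript did not overlap in any treated library, and their pooled intervals were 27.8% to 36.6% and 7.43% to 14.3%.

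**Figure D1:**
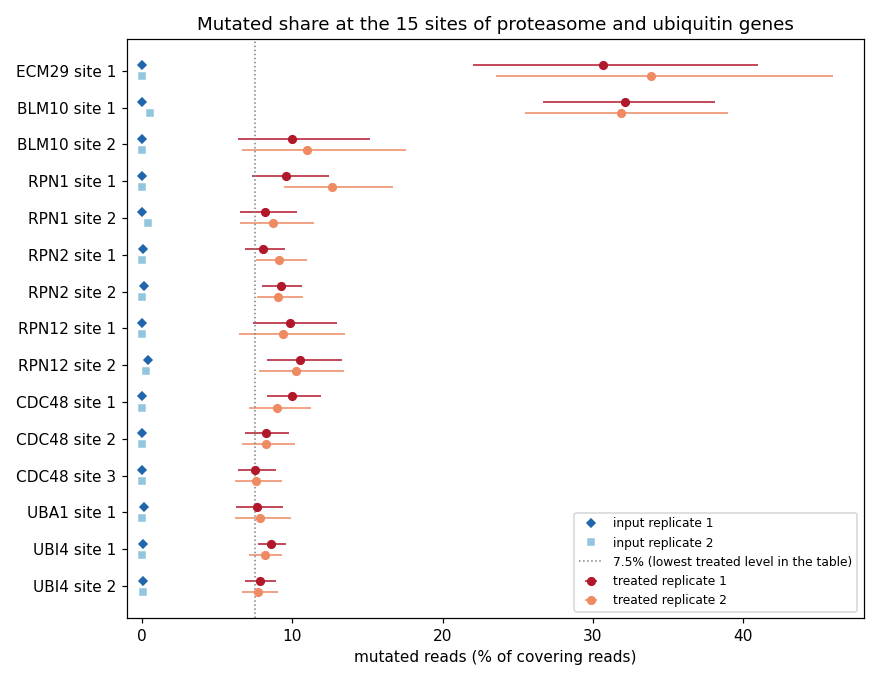
Mutated reads as a percentage of covering reads at the 15 sites, with treated replicates as circles with Wilson 95% intervals, input replicates as a diamond and a square, and the lowest treated level of the table, 7.5%, as a dotted line. ECM29 site 1 and BLM10 site 1 sit at 30.7% to 33.8% in both treated libraries, and all other treated values lie between 7.52% and 12.6%.

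The 3 regulatory particle subunits held 2 sites each, with levels of 8.44% to 11.1%. RPN1 (YHR027C, chromosome VIII, minus strand) encodes a scaffold of the base that docks ubiquitin receptors. Site 1, at position 163130, had 49 of 513 (9.55%) and 41 of 325 (12.6%) treated reads mutated and 0 of 377 and 0 of 311 in input. Site 2, at position 161860, had 67 of 817 (8.20%) and 44 of 507 (8.68%) treated reads mutated, and 0 of 646 and 2 of 565 in input. Site 1 was thus the higher in both treated libraries, but the pooled intervals of 8.82% to 13.0% and 7.01% to 9.9996% overlapped.

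RPN2 (YIL075C, chromosome IX, minus strand) encodes the second large scaffold of the base. At its site 1, position 218404, 131 of 1624 (8.07%) and 99 of 1085 (9.12%) treated reads were mutated, and 1 of 1440 and 0 of 1191 in input. At site 2, position 218012, the counts were 166 of 1800 (9.22%) and 119 of 1316 (9.04%), with 2 of 1637 and 0 of 1209 in input. The order of these sites turned between the treated libraries.

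RPN12 (YFR052W, chromosome VI, plus strand) encodes a subunit of the lid. Its site 1, at position 252650, had 43 of 438 (9.82%) and 25 of 266 (9.40%) treated reads mutated, and 0 of 463 and 0 of 329 in input. Site 2, at position 253142, had 61 of 580 (10.5%) and 46 of 448 (10.3%) mutated, and 2 of 564 and 1 of 444 in input. The pooled input share at site 2, 0.298%, was the highest among the 15 sites.

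CDC48 (YDL126C, chromosome IV, minus strand) was the member with the most sites, 3. Site 1, at position 238524, had 109 of 1095 (9.95%) and 66 of 736 (8.97%) treated reads mutated, and site 2, at position 238506, had 111 of 1351 (8.22%) and 77 of 937 (8.22%). These 2 sites lie 18 nt apart, so one read can cover both. Site 3, at position 236403, had 126 of 1675 (7.52%) and 85 of 1118 (7.60%). The level fell from site 1 to site 3 in both treated libraries, while the pooled intervals of site 1, 8.29% to 10.99%, and site 3, 6.63% to 8.59%, still overlapped. No input read was mutated at the 3 sites, and the upper limits per site ran from 0.104% to 0.181%. Their input coverage sums to 6594, in which a read over several sites counts at each.

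The genes that supply and activate ubiquitin held levels of 7.75% to 8.37%. UBA1 (YKL210W, chromosome XI, position 39584, plus strand), the E1 enzyme, had 86 of 1125 (7.64%) and 64 of 815 (7.85%) treated reads mutated, and 1 of 1038 and 0 of 841 in input. UBI4 (YLL039C, chromosome XII, minus strand) encodes a head-to-tail chain of ubiquitin units. Its site 1, at position 65027, had 290 of 3373 (8.60%) and 200 of 2455 (8.15%) mutated, and 1 of 2872 and 0 of 2438 in input. Its site 2, at position 64085, had 210 of 2681 (7.83%) and 146 of 1888 (7.73%) mutated, and 2 of 2575 and 1 of 2097 in input.

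The UBI4 sites lie 942 nt apart, which is 4 whole units of 228 nt, for a ubiquitin of 76 residues, and 30 nt. They therefore do not fall on the same base of the unit, if both are within the repeats. Reads from such repeats can be placed at several units, and their handling by the authors was not stated in the sources used. Across the members, 5 of the 6 transcripts with several sites had the same order of levels in both treated libraries, RPN2 being the exception. BLM10, chosen for the level of its site 1, is among the 5. Over all 425 listed genes with several sites, 213 (50.1%) kept their order. These include genes with more sites than any member. Median mean treated coverage also differed, 915.5 reads at member sites and 400.5 over all sites, so the 2 shares are not alike. The site nearest the 5′ end was the highest in 4 of the 6, namely BLM10, chosen for this site, RPN1, CDC48 and UBI4, and in 181 of the 425 (42.6%). With 6 transcripts these shares are given without a test. Of the 7 distances between neighbouring sites of a member transcript, 4 were a multiple of 3, 1 each in RPN12 and UBI4 and 2 in CDC48, against 215 of 636 (33.8%) over all listed genes. Distances are in genome coordinates, and with 7 of them this share is given without a test.

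Coverage differed between the members and moved with the level. Mean treated coverage was 76.5 reads at the ECM29 site, 215.5 and 154.5 at the BLM10 sites, and at least 352 reads at each of the other 12 sites. Across the 15 sites, which share the same 4 libraries, the level fell with the mean treated coverage (Spearman's rho = -0.81), and over all 1892 sites rho was -0.50. ECM29 and BLM10 site 1, chosen for their level, are among these 15, and over the other 13 sites rho was -0.71. The minimum level for listing, given below, was higher at shallow sites. A negative rho among listed sites is therefore in part set by the listing, and it was not tested. Only 6 listed sites were shallower than that of ECM29. Among the 41 listed sites within 1.5-fold of its coverage the median level was 14.5%, and ECM29 held rank 3 by level. Among the 646 sites within 1.5-fold of the coverage of BLM10 site 1 the median was 9.67%, and BLM10 held rank 2. Over the whole table the ECM29 and BLM10 sites held ranks 6 and 7 by level.

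The minimum that a site needed to be listed also depended on its coverage. Every listed site had at least 7.5% and 10 mutated reads in both treated libraries and an authors' q-value under 0.01, and the authors' p-values solve to a one-sided binomial test against rates of 1.83% and 1.81%. With these filters the ECM29 position needed 12 and 10 mutated reads in replicates 1 and 2, or 13.6% and 15.4%, and had 27 and 22. The table's median level of 9.00% would have given 7.92 and 5.85 mutated reads there, fewer than those minimums. BLM10 site 1 needed 19 and 16 mutated reads and had 81 and 57, while BLM10 site 2 needed 16 and 13 and had 18 and 14. At the other end, CDC48 site 3 had the 126 mutated reads that were the fewest allowed in replicate 1 and 1 more than the 84 of replicate 2. UBA1 stood 1 and 2 reads above its minimum. In all, 8 of the 15 sites and 61.2% of all listed sites were within 10% of the minimum in at least 1 treated library. Positions that missed it are not analysed here, so the absence of a further listed site in ECM29 says nothing about its other cytidines.

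**Figure D2:**
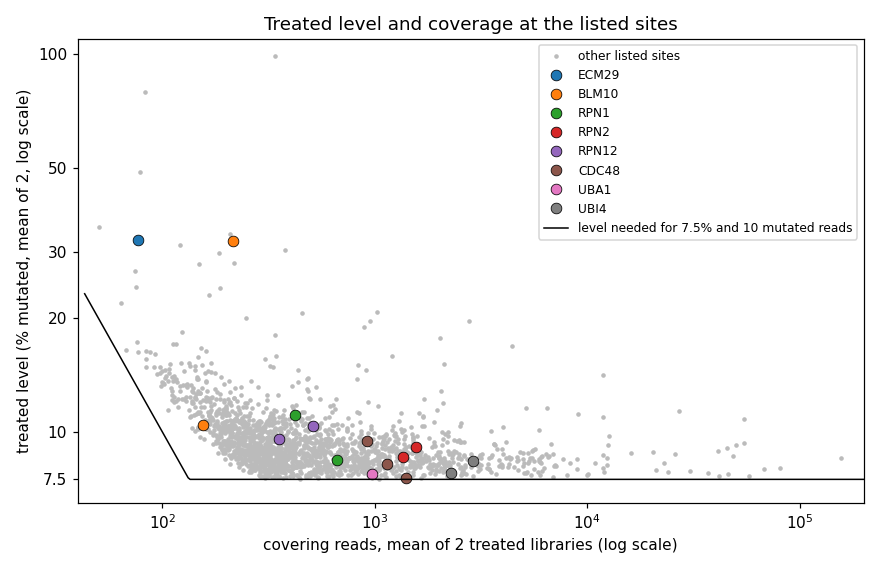
Treated level in percent against mean treated coverage in reads, both on log scales, for all 1892 listed sites (grey) and the 15 member sites (coloured by gene), with the level needed to have 7.5% and 10 mutated reads as a line. ECM29 and BLM10 site 1 stand at 32.3% and 32.0% at 76.5 and 215.5 reads, and the other 13 member sites lie between 7.56% and 11.1%.

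The sites with levels most like those of the ECM29 and BLM10 sites were sought by the absolute difference of the mean over the 2 treated libraries. The nearest were first of all each other, 0.271 percentage points apart. Both genes were chosen with these like levels in view, so their closeness follows from the choice and is not a result. For ECM29 the next were VPS41, which encodes a subunit of a vacuolar tethering complex, at 31.3% and OSH7, of the oxysterol-binding protein family, at 33.6%. For BLM10 the next were VPS41 and the coat protein gene SFB3, at 30.4%. These neighbours varied more between treated libraries than BLM10 site 1 did, but ECM29 varied more than OSH7 (SD of 2.24 and 1.69 points, n = 2). Each spread is a single difference between 2 libraries. VPS41 had 25.5% and 37.0% at 141 and 100 covering reads, and OSH7 32.4% and 34.8% at 275 and 141. SFB3 had 33.4% and 27.5% at 461 and 295.

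The agreement of the treated libraries was tested at every listed site by two-sided Fisher exact test of the mutated against the unmutated reads. After Benjamini-Hochberg adjustment over 1892 sites, 0 sites (0%) differed, and at an unadjusted p under 0.05 there were 52 sites (2.75%) over the table and 0 among the 15. The lowest unadjusted exact p of a member was 0.171, at RPN1 site 1, where the replicates differed by 3.06 percentage points. ECM29 differed by 3.16 points (exact p = 0.728, unadjusted) at 88 and 65 reads, and BLM10 site 1 by 0.299 points (exact p = 1, unadjusted). The median absolute difference was 0.419 points over the member sites and 0.870 points over all sites, at a median mean treated coverage of 915.5 and 400.5 reads. Sites were listed only if they passed in both libraries, which limits how far replicates of a listed site can differ. ECM29 and BLM10 site 1 were also chosen for their level in these same libraries. At the 88 and 65 reads of ECM29 the test can miss sizeable differences, so a high p does not show agreement.

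In the input libraries 14 of 28474 covering reads, summed over the 15 sites, were mutated (0.0492%), 9 in replicate 1 and 5 in replicate 2. Over all listed sites the input share was 0.0460%. Every listed site had an authors' ratio of treated over input of at least 20.2 in both replicates. Low input shares were thus tied to the listing and carry no test. No mutated input read was seen at 7 of the 15 sites (46.7%), against 1212 of all 1892 sites (64.1%). Member sites were deeper, with a median mean treated coverage of 915.5 against 400.5 reads, so these 2 shares are not alike. The 7 member sites without a mutated input read were the ECM29 site, BLM10 site 2, RPN1 site 1, RPN12 site 1 and the 3 CDC48 sites. The highest input share of a single library was 0.490%, 1 read at BLM10 site 1 in replicate 2. Subtracting the input moved that level from 32.0% to 31.7%.

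Covering reads were compared between treated and input libraries, since the difference in coverage between them was not used to choose the members. Treated coverage did enter the minimum for listing, which every member site had passed. The comparison asks whether fewer or more reads reached a site after treatment, relative to all listed sites. By edgeR's quasi-likelihood test 0 of the 15 member sites differed after Benjamini-Hochberg adjustment over all sites, while over the table coverage was higher at 18 sites (0.951%) and lower at 34 sites (1.8%). At an unadjusted p under 0.05 there were 3 member sites of 15 and 286 sites in all (15.1%). The 52 calls over the table fell to 10 without treated replicate 1, to 19 without treated replicate 2 and to 19 with DESeq2, with 0 member sites called each time. ECM29 had 88 and 65 treated reads against 63 and 68 input reads, and its log2 difference was 0.13 ± 0.21 (SE, edgeR adjusted p = 0.850). BLM10 site 1 had 252 and 179 against 228 and 204, with a log2 difference of -0.10 ± 0.13 (SE, edgeR adjusted p = 0.826). The ranges of treated and input libraries overlapped at both sites. When 1 library was left out, the value ran from -0.07 to 0.33 at ECM29, where it was negative without input replicate 1, and from -0.16 to -0.04 at BLM10 site 1, where it was nearest 0 without input replicate 2.

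The 3 member sites with an unadjusted p under 0.05 did not pass the adjustment. RPN12 site 1 had 438 and 266 treated and 463 and 329 input reads, a log2 difference of -0.26 ± 0.10 (SE, edgeR adjusted p = 0.112), which was -0.15 without input replicate 1. For CDC48 site 3 the log2 difference was -0.14 ± 0.05 (SE, edgeR adjusted p = 0.115), and for UBI4 site 2 it was -0.12 ± 0.04 (SE, edgeR adjusted p = 0.0973). The second site of RPN12 and the other sites of CDC48 and UBI4 had values of -0.06 to 0.07. The largest positive value was 0.19 ± 0.10 at RPN1 site 1 (SE, edgeR adjusted p = 0.329), which was 0.11 without treated replicate 1. Of the 15 values 8 were positive and 7 negative, with a median of 0.03 against 0.00306 over all sites.

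**Figure D3:**
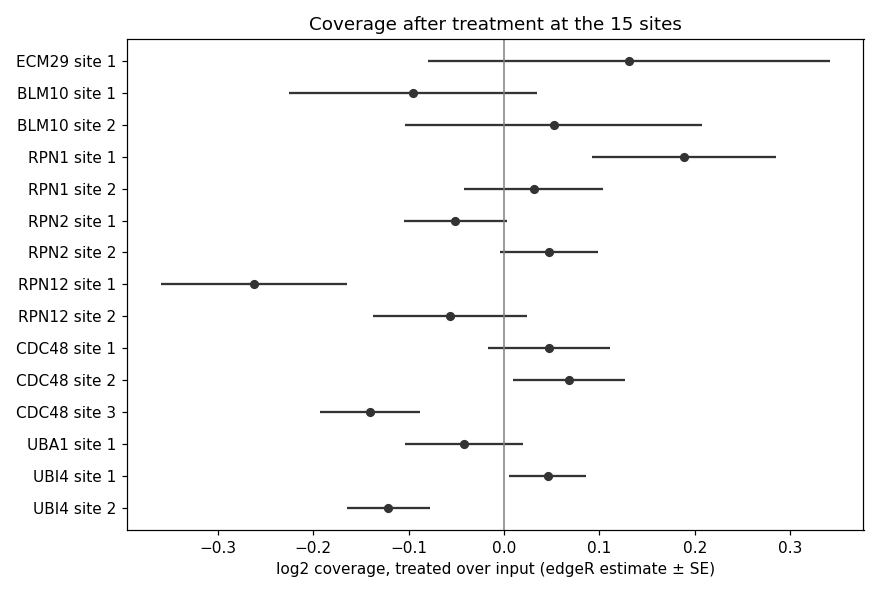
Log2 ratio of covering reads in treated over input libraries at the 15 sites, relative to all listed sites. Points are edgeR estimates, and bars are standard errors derived from the F statistic of its test. Values run from -0.26 at RPN12 site 1 to 0.19 at RPN1 site 1, and none passed an adjusted p of 0.05.

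The wider pathway was read from a list of 102 genes, of which 40 (39.2%) held a listed site, 8 members and 32 others, against 20.8% of all 6002 nuclear protein-coding genes. The members were picked because they hold sites. Without them the count was 32 of 94 (34.0%). Coverage and length of genes without a site were not used, so these shares are not separated from expression or gene length, and they were not tested. The 45 sites of the 32 other genes had levels of 7.53% to 16.5% with a median of 8.92%. At 12 of them the level was at least 10%, and at 0 it was at least 20%.

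The core particle was represented by 7 of its 14 genes, with 8 sites at 7.53% to 10.01% (PRE2, PRE6, PRE8, PRE9, PRE10, PUP1 and PUP2). Mean treated coverage at these sites was 587 to 1342 reads, against 76.5 and 215.5 at the ECM29 and BLM10 sites. PRE6, an alpha-ring subunit, had the highest mean level of these genes at 10.01%, and PRE8, also of the alpha ring, the lowest at 7.87%. Of the regulatory particle 8 of 19 genes held a site, the 3 members and RPN3, RPN13, RPT1, RPT3 and RPT6. The 6 sites of the latter 5 had levels of 7.75% to 9.45%, against 8.44% to 11.1% at the 6 member sites. Among them the ATPase RPT1 had 9.45% and the ubiquitin receptor RPN13 had 7.86%. All sites of core and regulatory subunits, members included, thus lay at or below 11.1%. ECM29 and BLM10 site 1 were the only sites of the list at 20% or more. Both were chosen for their level, so this contrast follows from the choice and is not a result. Over all listed sites 1.06% reached 20%.

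Of the other associated proteins, assembly chaperones and the transcription factor RPN4, 5 of 12 genes held a site. They were ADD66, a chaperone of core assembly, with the highest mean level over its sites, 12.3% at 124 reads, RPN4 itself, the deubiquitinase UBP6, the chaperone NAS6, and UMP1, a chaperone of core maturation, with the lowest mean level, 8.38% at 964.5 reads. The other ubiquitin genes RPL40A, RPL40B and RPS31, which encode ubiquitin fused to ribosomal proteins, held no listed site. With 3 genes, and 20.8% of all nuclear protein-coding genes holding a site, this is a description only. How reads that match several ubiquitin genes were placed was not stated in the sources used. E2 enzymes with a site were 4 of 11, namely RAD6, with the highest mean level of 10.9%, CDC34, UBC5, and UBC7, with the lowest of 8.35%. E3 ligases with a site were 3 of 12, from UFD2 at 10.2% through SAN1 to RSP5, which ubiquitylates membrane proteins, at 12.9%.

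Cofactors of CDC48 and shuttle factors with a site were 4 of 10, namely SHP1, OTU1, UBX2, a membrane anchor of CDC48, with the highest mean level of 9.72%, and the shuttle factor DDI1 with the lowest of 7.60%. Their 7 sites had a median level of 8.22%, as had the 3 sites of CDC48. Deubiquitinases with a site were 4 of 16, and UBP7 had the highest mean level of the 32 genes, 16.4% at a mean of 77.25 treated reads. That depth is like that of ECM29, but the UBP7 sites lay at or near the minimum to be listed. At position 50371 its 12.9% and 20% were that minimum in treated replicates 1 and 2. At position 49097 it had 15.5% and 17.2%, against minimums of 11.8% and 15.6%. The lowest in this group was UBP2 at 9.09%, and UBP11 and UBP15 lay between them.

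**Figure D4:**
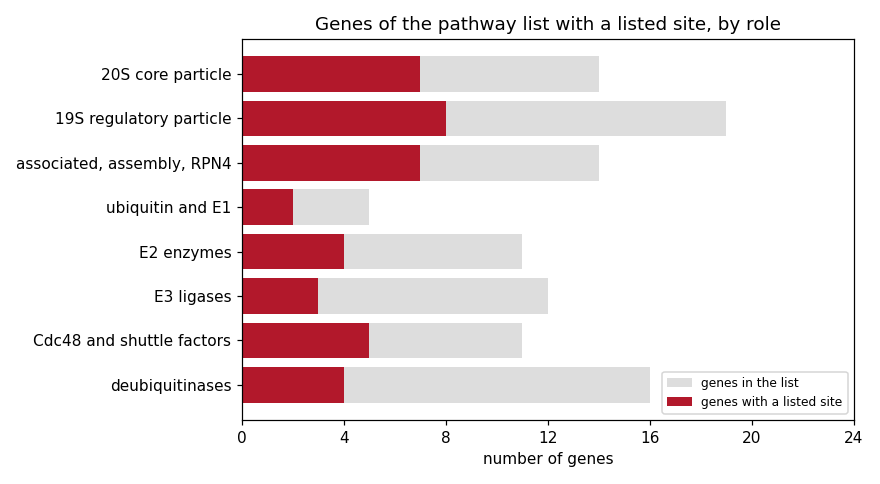
Number of genes of the pathway list per role (grey bars) and of those with at least 1 listed site (red bars). The red bars include the 8 members, which were picked because they hold sites; without them the counts are 7 of 14 for the core particle, 5 of 16 for the regulatory particle, 5 of 12 for associated and assembly proteins and 0 of 3 for ubiquitin genes.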

How the data were processed

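Per the file headers, the authors' deposited table gives counts of covering and of mutated reads per site for 2 treated and 2 input libraries. It also gives the deposited fraction, which equals mutated over covering reads, and per replicate an authors' ratio (treated over input) with its p-value and q-value. The mutated base, genome build and site caller were not stated in the sources used. The submitters' processing notes name cutadapt and STAR. Sample titles gave the groups and the replicate numbers. Whole-library depth is unknown. Median coverage per listed site was 327.5 to 469 reads.

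The members, lists and tests were chosen with earlier results of these data known. All member sites were named. Other list genes with a site were named by role, with values for those of highest and lowest mean level. The 3 sites nearest in level were named for ECM29 and BLM10. Symbols of 8 members and 102 list genes were matched by locus tag or symbol in the RefSeq gene table of assembly R64, from which no coordinates were taken. Wilson intervals use a level of 95%, and a count of 0 allows up to 3 reads. edgeR 4.0.16 fitted coverage counts of all 1892 sites in 4 libraries with TMM factors and an adjusted p of 0.05. Its test returns no SE, so each SE of a log2 difference is its absolute value over the square root of the F statistic. DESeq2 1.42.0 in R 4.3.3 was an alternative. Other computations used Python 3.11.15, scipy 1.17.1, statsmodels 0.14.6 and pandas 2.3.3. Sequence context was not analysed here.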

Additional observations from a re-analysis of the deposited data

How the results depend on the processing

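Leaving out a replicate gave levels of 30.7% to 33.8% for ECM29 and 31.8% to 32.1% for BLM10 site 1, and ranks of 7 to 8 and 7 to 9. Under a minimum of 100 reads per library, which leaves out ECM29 by construction, BLM10 site 1 ranked 3 and the median of the member sites was 8.86%. With input subtracted BLM10 site 1 was 31.7%. Coverage calls over all sites numbered 52 with edgeR, 19 with DESeq2, and 10 to 37 when a library was left out, with 10 without treated replicate 1 and 19 without treated replicate 2. In each of these, 0 member sites were called, but DESeq2 gave an adjusted p for only 5 of the 15. Uncalled log2 differences changed sign when a library was left out, with ranges of -0.0695 to 0.325 at ECM29, -0.0641 to 0.102 at RPN1 site 2, -0.0242 to 0.128 at RPN2 site 2 and -0.124 to 0.0253 at RPN12 site 2. Same-numbered libraries share only a number, and their deviations in coverage correlated at -0.00534 over 1892 sites. With the replicate block the coverage test called 42 sites and 0 members. Pathway genes with a site numbered 15 at a level of at least 10%, by construction. The cause of the other changes was not tested. The alternative on sequence windows was not run. The shallowest member, ECM29, sets the limit of depth.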
